A study of Mus musculus with 10 samples.

Results

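Collagen genes were followed chain by chain in 10 mouse tumors, to see which types differed between sarcomatoid carcinoma and adenocarcinoma and between lung and mammary sarcomatoid tumors. The members were the array probes named Col, a type number, a and a chain number, and each gene was read from its brightest probe over all arrays. This gave 40 genes of 26 collagen types, out of 27962 gene names on the array. The 40 genes had 78 of the 41174 probes. They were divided into 11 fibrillar genes (types I, II, III, V, XI, XXIV and XXVII), 6 genes of basement membrane type IV, and 23 genes of other types. On all 10 arrays 28 of the 40 probes were well above background in the red channel, 8 were so on 5 to 9 arrays, and Col4a3, Col10a1, Col19a1 and Col28a1 were so on 1 to 3.

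The 5 sarcomatoid (spindle cell) carcinomas and 5 adenocarcinomas arose in, or were grown from tumors of, mice on a C57BL/6 background with Cre under the MMTV promoter, which is active in mammary epithelium. The adenocarcinomas 105, 131, 470, 17 and 85 were mammary tumors of mice with both mutant alleles, Pik3ca H1047R and Trp53 R270H, and MMTV-Cre. The sarcomatoid group held mammary tumors 323, 307 and 594. Per the study's methods 1 had the same double mutant genotype, 1 was a Pik3ca H1047R;MMTV-Cre tumor with an acquired Trp53 R245H mutation, and 1 was a Trp53 R270H;MMTV-Cre tumor without the Pik3ca allele. The first and second each also gave a lung tumor, grown after tail vein injection of a cell line from it, and these were 323 lung and 307 lung. By elimination 594 was the Trp53 R270H;MMTV-Cre tumor, while which of 323 and 307 carried which genotype was not given in the sources used here. The tail vein model was a syngeneic one in C57BL/6 mice. The labels call 323, 307 and both lung tumors sarcomatoid adenocarcinoma and 594 sarcomatoid carcinoma, and they were grouped as the study did. The sarcomatoid group thus held 3 origins in 5 arrays, and genotype cannot be fully told apart from histology. The labels do not say that each tumor came from its own mouse, so the tests measure the spread between these 10 samples.

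Values are log2 ratios of tumor (red channel) over a common reference RNA (green channel), 1 array per tumor, from the authors' normalized table. The direction is likely rather than settled, because the labels give the green dye to the tumor. The collagen probes varied over arrays with a mean SD of 1.70 in log2 red signal and 0.733 in green. Over all probes these were 0.975 and 0.737, and red was therefore read as the tumor. If the dye label is right, every sign below turns. The arrays had 52.2% to 83.0% of probes well above background. They were read with 3 scan protocols, protocol 1 for 323 alone, protocol 2 for 307, 594, 105 and 470, and protocol 3 for both lung tumors with 131, 17 and 85.

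Adenocarcinoma 470 stood apart from its group. Its 8 epithelial markers (Epcam, Cdh1, Krt8, Krt18, Krt19 and claudins) had a mean log2 ratio of -1.65, against 3.02 to 3.39 in the other 4 adenocarcinomas, and its 10 fibroblast markers had the highest mean of all tumors (2.91). Over all 40196 probes tested, leaving 470 out took the probes called between the groups from 0 to 340 higher and 278 lower (limma, adjusted p below 0.05). Collagen results are therefore given with and without it. The choice was made on these data, so a fit without 470 is not an independent test of genes that follow these markers.

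Collagen molecules are triple helices built from the chains of a single gene or of several genes. Fibrillar collagens are secreted as procollagens, mostly by fibroblasts and other mesenchymal cells, and assemble into the fibers of tumor stroma. Type IV collagen forms the sheet under epithelium and around vessels, type VI forms beaded filaments between fibers and cells, and the FACIT collagens, such as types IX, XII and XIV, lie on the surface of fibrils.

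Genes whose ratios moved together over the tumors are shown first with the DNA before their starts. The windows are the 200 bases before the annotated RefSeq start in GRCm38.p6, for a fibrillar pair, for both neighbouring type VI genes and for 1 gene of type IX. The search covered both strands for the TATA box letters TATAA, for the CCAAT box and for the Sp1 box letters GGGCGG, and a match is in capitals. Col1a2 lies at chr6:4505418-4505617 on the plus strand and Col3a1 at chr1:45311338-45311537 on the plus strand. Col6a1 lies at chr10:76726045-76726244 and the second listed start of Col6a2 at chr10:76623631-76623830, both on the minus strand. Col9a2 lies at chr4:121039366-121039565 on the plus strand.
Col1a2: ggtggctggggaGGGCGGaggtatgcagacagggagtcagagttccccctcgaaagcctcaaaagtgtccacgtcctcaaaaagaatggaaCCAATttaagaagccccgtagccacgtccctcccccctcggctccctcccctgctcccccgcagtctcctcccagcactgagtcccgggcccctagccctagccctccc
Col3a1: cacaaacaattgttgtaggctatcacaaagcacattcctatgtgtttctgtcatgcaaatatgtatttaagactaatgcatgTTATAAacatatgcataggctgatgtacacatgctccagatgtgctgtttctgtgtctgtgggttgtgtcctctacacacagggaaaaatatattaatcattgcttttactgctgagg
Col6a1: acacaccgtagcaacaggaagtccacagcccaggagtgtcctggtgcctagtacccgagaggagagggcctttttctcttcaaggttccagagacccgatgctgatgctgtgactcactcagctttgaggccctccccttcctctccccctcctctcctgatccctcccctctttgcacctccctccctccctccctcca
Col6a2: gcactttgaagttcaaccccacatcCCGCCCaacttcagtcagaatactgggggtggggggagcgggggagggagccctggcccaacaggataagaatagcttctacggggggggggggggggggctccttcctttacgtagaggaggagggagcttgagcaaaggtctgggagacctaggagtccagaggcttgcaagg
Col9a2: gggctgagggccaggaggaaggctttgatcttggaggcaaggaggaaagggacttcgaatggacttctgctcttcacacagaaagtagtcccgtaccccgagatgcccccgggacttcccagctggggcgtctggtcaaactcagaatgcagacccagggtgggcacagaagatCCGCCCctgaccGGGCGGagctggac
The Col1a2 window held 1 GGGCGG and 1 CCAAT, and the Col3a1 window held TATAA on both strands in 1 overlapping stretch. The Col6a1 window held none of the 3 motifs, the Col6a2 window held 1 GGGCGG and the Col9a2 window held 2. In the full 250 bases before the start, TATAA was found in 22.8%, CCAAT in 33.8% and GGGCGG in 32.7% of 32851 listed mouse promoters. The table listed 35 promoters for 32 of the 40 collagen genes, of which 7 held TATAA, 12 CCAAT and 19 GGGCGG. These are letter matches only. No entry was listed for Col1a1, Col5a2 or Col9a3.

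The fibrillar collagens varied most from tumor to tumor of the 3 classes, and high and low tumors lay in both groups. Col1a1, the alpha 1 chain of type I collagen that is the main fiber of stroma (probe at chr11:95060800-95060859, plus strand, mm7), had log2 ratios of -3.88 in 323, -4.57 in 323 lung, -1.40 in 307, 1.97 in 307 lung and 1.30 in 594. In the adenocarcinomas its log2 ratios were 0.99 in 105, -3.43 in 131, 0.90 in 470, -3.66 in 17 and -2.17 in 85. The range of 6.54 on the log2 scale is 92.9-fold, and 307 lung, 594, 105 and 470 stood above 0 while the other 6 tumors were at -1.40 or lower. Col1a2, its partner chain (probe at chr6:4493505-4493564, plus strand, mm7), had -2.42, -3.998, -1.87, 1.88 and 0.93 in the sarcomatoid tumors 323, 323 lung, 307, 307 lung and 594, and -0.06, -3.06, 0.73, -2.96 and -2.68 in adenocarcinomas 105, 131, 470, 17 and 85. Both type I chains placed 307 lung highest and 323 lung lowest. The sarcomatoid minus adenocarcinoma difference was 0.16 ± 1.38 (SE) for Col1a1 and 0.51 ± 1.13 for Col1a2, with 5 tumors a group (limma adjusted p 0.984 and 0.927). Leaving out 307 lung turned both, to -0.66 and -0.23.

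**Figure D1:**
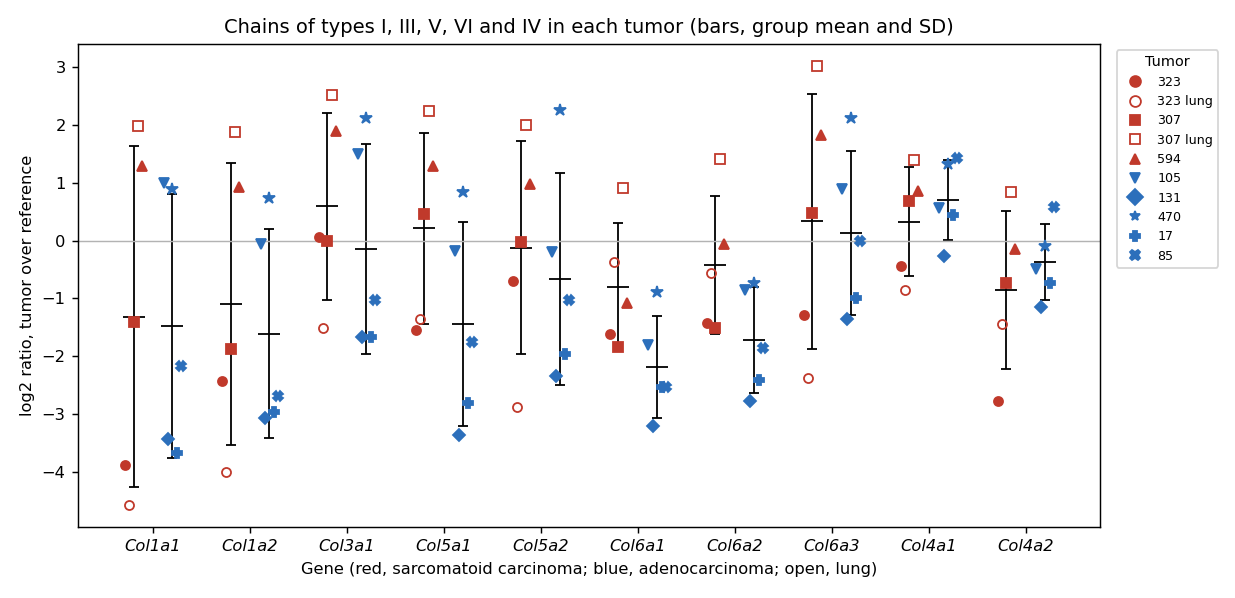
Log2 ratio of tumor over reference (vertical axis) for 10 collagen chains (horizontal axis). Each symbol is a tumor, red for sarcomatoid carcinoma, blue for adenocarcinoma and open for lung, and black bars give the group mean and SD (n = 5). Tumors 307 lung and 594 of the sarcomatoid group and 470 and 105 of the adenocarcinomas lie highest for the type I chains, so the groups overlap.

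Among chains that co-assemble with type I, Col3a1, Col5a1 and Col5a2 were highest in 307 lung, 594 and 470, not always in that order. Their lowest tumors differed. Col3a1, which forms type III fibers (probe at chr1:45585395-45585454, plus strand, mm7), had log2 ratios of 0.06, -1.51, -0.01, 2.52 and 1.89 in 323, 323 lung, 307, 307 lung and 594. Its adenocarcinoma values were 1.49, -1.67, 2.11, -1.66 and -1.02 in 105, 131, 470, 17 and 85, so 307 lung and 470 were highest and 131 and 17 lowest. Col5a1, a chain of the type V collagen that nucleates fibrils, had -1.55, -1.36, 0.46, 2.23 and 1.28 in the sarcomatoid tumors in the same order, and -0.18, -3.36, 0.84, -2.80 and -1.75 in the adenocarcinomas. Its difference of 1.66 ± 0.91 (SE) was the highest of the 40 genes by their main probes, and the groups overlapped (limma adjusted p 0.607). The other Col5a1 probe, well above background on 10 arrays, had a difference of 0.85. Col5a2 had -0.70, -2.87, -0.02, 1.999 and 0.97 against -0.20, -2.34, 2.26, -1.97 and -1.03, with 470 highest and 323 lung lowest. Col5a3, another type V chain, was highest in 470 (4.36), 307 (3.25) and 594 (2.87), with 2.25 in 307 lung.

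Of the 11 fibrillar genes, 307 lung, 594 and 470 were each among the 4 highest tumors for 10, and 105 for 6. Tumor 17 was among the 4 lowest for all 11, 131 for 10, and 323 lung and 85 for 8 each. The median SD over the 10 tumors was 1.67 for fibrillar genes, 0.919 for type IV and 1.21 for the other collagens, against 0.569 for all probes. The fibroblast marker list had a mean log2 ratio of 2.91 in 470, 2.22 in 594, 1.60 in 105, 1.57 in 307 lung, 1.46 in 307 and 1.36 in 323. It was 0.01 in 323 lung, -0.32 in 85, -0.36 in 131 and -0.82 in 17, so the 4 tumors highest in fibrillar genes were also highest in these markers. These are bulk samples, in which fewer cells of a type and less RNA per cell cannot be told apart, and the part of the fibroblast list in the collagen ratios was not tested.

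**Figure D2:**
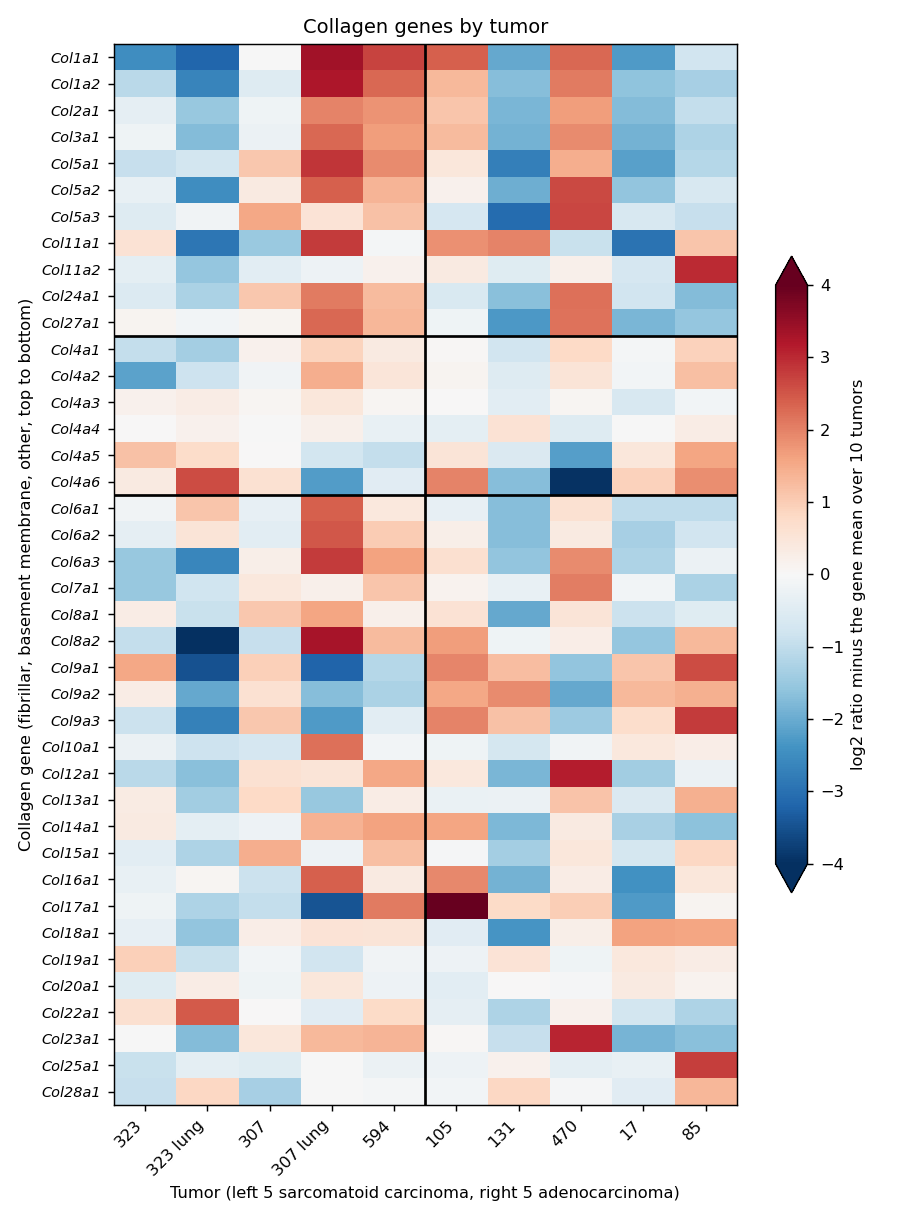
Log2 ratio of each collagen gene minus its mean over the 10 tumors (color, in log2 units, cut at 4 either way), with genes in rows by class and tumors in columns. The fibrillar rows at the top are red in 307 lung, 594 and 470 and blue in 323 lung, 131 and 17, while the type IX rows run the other way in 307 lung and 470.

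Outside types I, III and V, Col27a1, a fibrillar chain known from cartilage, had log2 ratios of 0.78, 0.58, 0.80, 2.97 and 2.01 in 323, 323 lung, 307, 307 lung and 594, against 0.51, -1.62, 2.85, -1.15 and -0.87 in 105, 131, 470, 17 and 85. The groups overlapped through 470, which lay within the sarcomatoid range, while the other 4 adenocarcinomas were below all 5 sarcomatoid values. The share of all probes that part in this way without 470 is not given here. Its difference was 1.49 ± 0.79 (SE; limma adjusted p 0.593) and became 2.21 without 470 (adjusted p 0.0834). It was -0.27 within scan protocol 2, which holds 470, and 2.99 within protocol 3. Col24a1 was similar, with 0.20 to 3.56 in the sarcomatoid tumors, 3.69 in 470 and -0.27 to 0.86 in the other adenocarcinomas. Signal was not well above background in 131, 17 and 85 for Col24a1, or in 131 and 85 for Col27a1. The other Col24a1 probe, well above background on 7 arrays, had a difference of -0.02 between the groups. The other Col27a1 probes were at 1.34 and 0.78, and its main probe was at 0.76 with normexp and loess. Type XI differed, since Col11a1 was highest in 307 lung (5.93) but high also in 131 (5.11) and 105 (4.95). The main Col11a2 probe was at 1.97 in 85 and at -0.66 or lower in the other 9 tumors. The other Col11a2 probe, well above background on 9 arrays, was at -0.17 in 85 and ran from -0.57 to 0.10.

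Between the groups 0 of the 40 collagen genes were called (limma, adjusted p below 0.05), as were 0% of all probes, with adjusted p values from 0.446 upward. The unadjusted p was below 0.05 for 4 of 40, namely Col6a1, Col6a2, Col9a3 and Col22a1, and for 9.23% of all probes. No collagen gene had groups that did not overlap, against 1.33% of all probes. The 11 fibrillar genes had a median difference of 0.69, with 9 higher and 2 lower in sarcomatoid carcinoma, the 6 type IV genes 0.06 (4 higher, 2 lower) and the 23 others -0.04 (10 higher, 13 lower), beside -0.0017 over all probes. Without 470 the medians were 1.26, -0.31 and 0.11, and still 0 of 40 were called (smallest adjusted p 0.0574). Without 307 lung the fibrillar median was 0.26. Within scan protocol 2 (307 and 594 against 105 and 470) the fibrillar median was -0.55. Within protocol 3 (both lung tumors against 131, 17 and 85) it was 1.79, so its direction was not the same in both. Every sarcomatoid tumor of protocol 3 was from the lung, so site and histology cannot be told apart there. The type IV medians were 0.16 and -0.14 and those of the other collagens -0.11 and 0.20.

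**Figure D3:**
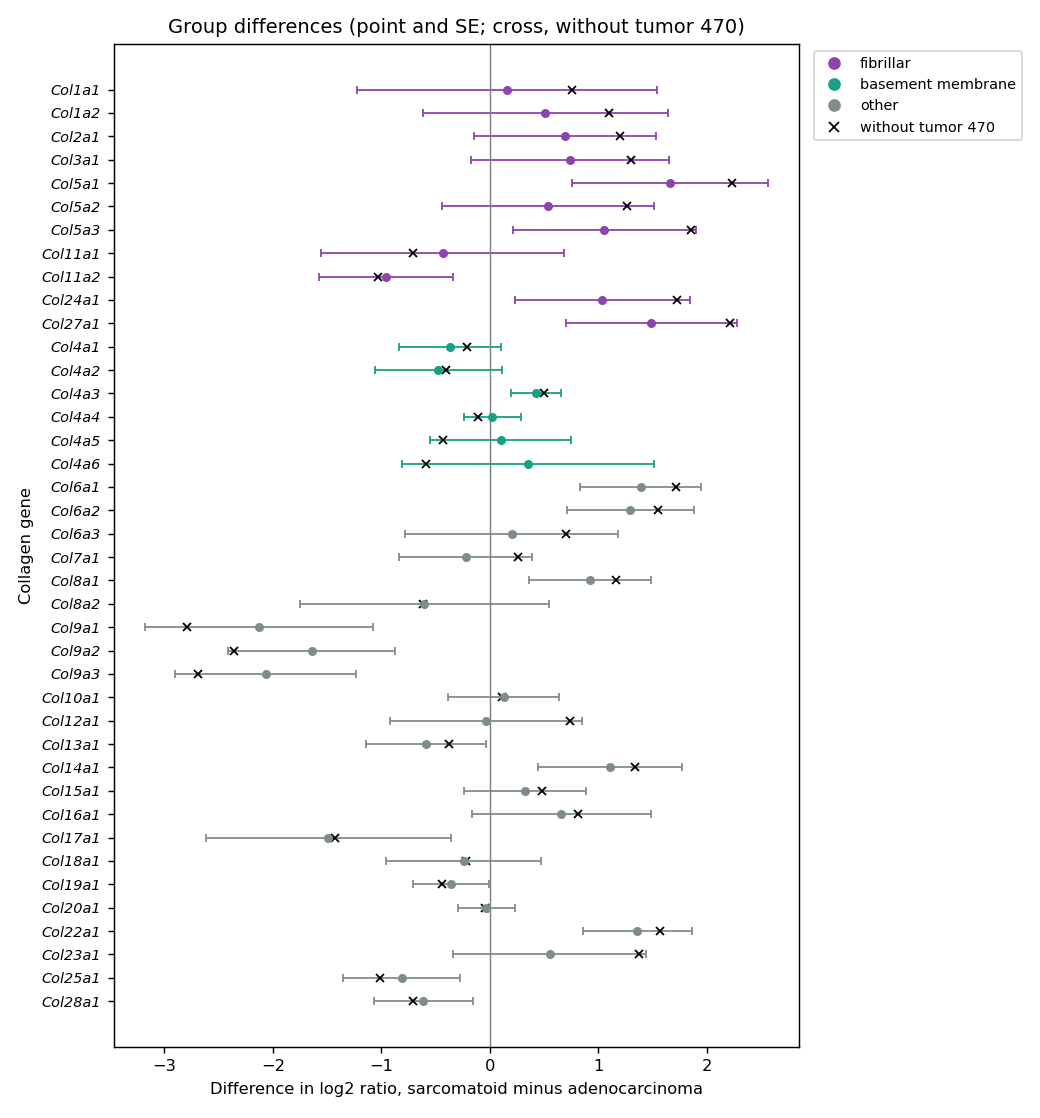
Difference in log2 ratio, sarcomatoid minus adenocarcinoma (horizontal axis), for the 40 collagen genes. Points are estimates with their SE (n = 5 tumors a group), colored by class, and crosses are the estimates without tumor 470. Fibrillar points lie mostly right of 0 and the 3 type IX genes lie farthest left, at -2.13, -1.64 and -2.07.

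Type VI collagen had 2 chains that moved as a unit and another chain that was closer to the fibrillar genes. Col6a1 (probe at chr10:76364050-76364109, minus strand, mm7) had log2 ratios of -1.62, -0.37, -1.84, 0.91 and -1.08 in 323, 323 lung, 307, 307 lung and 594, and -1.81, -3.21, -0.88, -2.53 and -2.52 in 105, 131, 470, 17 and 85. Col6a2 (probe at chr10:76251837-76251896, minus strand, mm7) had -1.43, -0.55, -1.50, 1.42 and -0.06 against -0.85, -2.78, -0.72, -2.40 and -1.85. In both genes 307 lung was highest and 131, 17 and 85 lowest, with the groups overlapping. The differences were 1.39 ± 0.56 (SE) and 1.30 ± 0.59 (limma adjusted p 0.480 and 0.535), and with mammary tumors alone 0.68 and 0.72. Within scan protocol 2 they were -0.11 and 0.01 and within protocol 3, 3.02 and 2.78. Col6a3, the large chain needed for the trimer, was at -2.37 in 323 lung and 3.02 in 307 lung with 2.12 in 470, close to Col5a2 (0.444 on the likeness scale given below, where smaller is closer), and its difference was 0.20 ± 0.98 (adjusted p 0.970).

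By their main probes the basement membrane chains changed less between tumors, apart from the chains on the X chromosome. Col4a1 and Col4a2 encode the common type IV trimer. Col4a1 (probe at chr8:11167020-11167079, minus strand, mm7) had log2 ratios of -0.44, -0.85, 0.68, 1.39 and 0.86 in 323, 323 lung, 307, 307 lung and 594, and 0.57, -0.27, 1.32, 0.44 and 1.43 in 105, 131, 470, 17 and 85. Col4a2 had -2.77, -1.44, -0.74, 0.83 and -0.14 against -0.49, -1.14, -0.10, -0.73 and 0.58, so both were low in 323 and 323 lung and high in 307 lung and 85. The differences were -0.37 ± 0.47 (SE) and -0.48 ± 0.59 (limma adjusted p 0.863 and 0.856). Endothelial markers, whose cells also lay down type IV, had list means of 2.45 to 4.28 in sarcomatoid tumors and 2.61 to 4.16 in adenocarcinomas.

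Col4a5 and Col4a6, the paired X-linked chains of epithelial basement membranes, were lowest in 470 by their main probes. Col4a6 ran from -3.02 in 470 and -1.31 in 307 lung to 3.53 in 323 lung and 2.90 in 105, a range of 6.56 log2 units. Col4a5 ran from -2.16 in 470 to 1.61 in 85. Another Col4a6 probe, well above background on 8 arrays, was also lowest in 470 (-2.36). A further Col4a6 probe, so on 10 arrays, was at -0.35 in 470 and ran from -0.52 in 323 to 1.18 in 323 lung. By the main probes the group differences of Col4a6 and Col4a5 were 0.35 ± 1.16 (SE) and 0.10 ± 0.65 with 470. Without it they were -0.59 and -0.44. Col4a3 was well above background on 1 sarcomatoid array and on no adenocarcinoma array, so no fold is given. Its measured difference was 0.42 (limma adjusted p 0.603). The other Col4a3 probes, well above background on 0 and 1 arrays, were at -0.92 and -0.80, so its direction is not settled. Col4a4 spanned -1.06 to 0.05 over the 10 tumors by its main probe. Its other probe, well above background on 5 arrays, ran from -0.07 in 470 to 5.09 in 131, with a group difference of -0.92.

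Type IX collagen, a FACIT collagen best known on the type II fibrils of cartilage, ran opposite to the fibrillar chains in several tumors. Col9a1 (probe at chr1:24461980-24462039, plus strand, mm7) had log2 ratios of 3.57 in 323, -1.47 in 323 lung, 2.99 in 307, -1.18 in 307 lung and 0.88 in 594. In adenocarcinomas it was at 3.98 in 105, 3.24 in 131, 0.44 in 470, 3.14 in 17 and 4.62 in 85. Both lung tumors, 594 and 470 were low and the other 6 tumors were at 2.99 or higher. Col9a2 had 2.0, -0.36, 2.31, -0.01 and 0.44 against 3.24, 3.60, -0.36, 2.99 and 3.12, and Col9a3 had 0.73, -1.10, 2.66, -0.66 and 1.18 against 3.57, 2.77, 0.13, 2.30 and 4.39. In each chain 4 adenocarcinomas were at 2.30 or higher and 470 lay inside the sarcomatoid range.

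The differences were -2.13 ± 1.05 (SE) for Col9a1, -1.64 ± 0.77 for Col9a2 and -2.07 ± 0.83 for Col9a3 (limma adjusted p 0.567, 0.548 and 0.480), and -2.79, -2.36 and -2.69 without 470 (adjusted p 0.214, 0.0574 and 0.0964). With mammary tumors alone they were -0.61, -0.93 and -1.10. Within scan protocol 2 the median of the 3 was -0.07 and within protocol 3, where the sarcomatoid tumors were both from the lung, -4.03. The mean of the 8 epithelial markers was -1.80 in 323 lung, -2.76 in 307 lung, -1.65 in 470 and 0.79 in 594, against 1.41 to 3.39 in the other 6 tumors. All 8 epithelial markers had lower means in sarcomatoid carcinoma (median difference -2.56, 0 called, limma smallest adjusted p 0.463), and their part in the type IX ratios was not tested. Of the cartilage markers, Matn1 was well above background on no array and Hapln1 on 3, while Acan and Chad were so on 9 and Sox9 and Comp on 10. The mean of these 6 markers lay between -0.12 and 0.93 in all 10 tumors. Comp was highest in 85 (3.84) and 105 (2.79), the tumors highest for Col9a1, and Sox9 was highest in 105 (2.57). Other markers of the list differed from this. Acan was highest in 470 (1.35) and at 0.09 in 105, and Chad was highest in 131 (2.02) and at 0.10 in 85. The part of these markers was not tested.

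**Figure D4:**
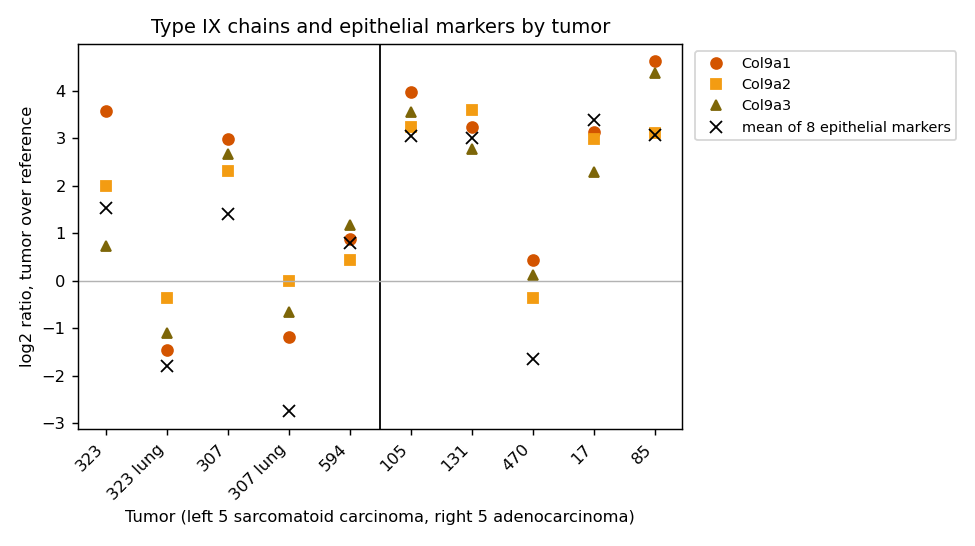
Log2 ratio of tumor over reference (vertical axis) for the 3 type IX chains (colored symbols) and the mean of 8 epithelial markers (crosses) in each tumor (horizontal axis). Tumors 323 lung, 307 lung, 594 and 470 are the 4 lowest for Col9a1, Col9a2 and the markers, while 323 is below 594 for Col9a3.

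Among the other collagens the sarcomatoid means were higher for Col22a1, Col14a1 and Col8a1, with overlapping groups for each. Col22a1, a FACIT chain known from tissue junctions, had log2 ratios of -0.27, 1.55, -0.90, -1.37 and -0.13 in 323, 323 lung, 307, 307 lung and 594, against -1.26, -2.13, -0.74, -1.62 and -2.15 in 105, 131, 470, 17 and 85. Its difference of 1.36 ± 0.50 (SE) had the smallest adjusted p of the 40 (limma, 0.446), and its groups overlapped through 307, 307 lung, 470 and 105. Its other probe, well above background on 9 arrays, had a difference of 0.19, the mean of both probes 0.78, and normexp with loess from the scanner files 0.81. Col14a1, a FACIT collagen of dense connective tissue, stood above the reference in every tumor, at 4.87, 4.11, 4.30, 5.89 and 6.12 against 6.09, 2.71, 4.87, 3.22 and 2.87, a difference of 1.105 ± 0.664 (adjusted p 0.649). Col8a1, a short chain network collagen, had 0.76, -0.42, 1.54, 2.05 and 0.67 against 1.04, -1.59, 0.98, -0.42 and -0.01 (difference 0.92 ± 0.56, adjusted p 0.655). Within scan protocol 2 the differences were 0.48 for Col22a1, -0.27 for Col14a1 and 0.10 for Col8a1. Within protocol 3, where the sarcomatoid tumors were both from the lung, they were 2.06, 2.06 and 1.49.

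Several of the other collagens differed widely between single tumors. Col17a1, the hemidesmosome collagen of basal epithelial cells, was highest in 105 (5.71) and not well above background in 307 lung. Its other probe, well above background on 6 arrays, was also highest in 105 (2.83) and ran down to -0.55. Col12a1, a FACIT collagen of type I fibrils, was highest in 470 (4.48) and at 2.89 or lower elsewhere. Col25a1, a transmembrane collagen, was at 3.26 in 85 and between -0.41 and 0.65 in the other 9 tumors, so its difference of -0.81 ± 0.54 (SE; limma adjusted p 0.690) became -0.22 without 85. The main Col11a2 probe likewise went from -0.96 to -0.33 without 85, and its other probe had a difference of -0.11 with all tumors. Col7a1, the anchoring fibril chain under epithelium, was above the reference in all 10 tumors (0.57 to 4.13), with a group difference of -0.22 ± 0.62 (adjusted p 0.943).

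Likeness of chains over the tumors was measured as the mean absolute difference of log2 ratios after each gene was set to its own mean over the 10 tumors, so 0 would be a perfect match. It is small for any genes that vary little, whether or not they move together. Over all 780 pairs of collagen genes the median was 1.30, and over the 27 pairs of chains of the same type 0.891, with 21 of the 27 below the median of all pairs. Of these pairs 15 were of type IV, the class with the lowest median SD, and 10 of the other 12 were below that median. Col20a1, of another type, was as close to Col4a4 (0.273) and to Col4a3 (0.346) as the type VI and IV neighbours were to each other. Col6a1 and Col6a2, neighbouring genes, were at 0.296, and the neighbours Col4a1 and Col4a2 at 0.366. The distant genes of type I, Col1a1 and Col1a2, were at 0.584, and the type IX chains, on 3 chromosomes, at 0.576 to 0.757. Col3a1 and Col5a2, neighbouring genes of different types, were at 0.471. Chains of a type that differed were Col11a1 and Col11a2 (1.58), Col8a1 and Col8a2 (1.501) and Col4a2 and Col4a6 (2.05). The points share the same 10 arrays and their reference, and no test was made.

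Lung and mammary sarcomatoid tumors were compared in 2 against 3 tumors, with 0 of 40 collagen genes called (limma, smallest adjusted p 0.307), where 0.0249% of all probes were called. At an unadjusted p below 0.05 there were 5 of 40 (all probes 10.7%), and 11 of 40 had groups that did not overlap (all probes 34.3%). All 3 type IX chains were among these 11, lower in lung. Col9a2 was at -0.01 in 307 lung against 0.44 in 594, and Col9a3 was not well above background in 323 lung. Col9a1 was not well above background in either lung tumor and was on all 3 mammary arrays. Its measured difference, with dim signal in lung, was -3.81 ± 1.08 (SE; limma adjusted p 0.307). Against the dimmest probe well above background it was 3.47-fold lower in lung. With normexp and loess from the scanner files the measured difference was -1.70, which is less than that fold. The 3.47 is therefore not a lower bound under every setting. Col13a1, a transmembrane collagen, was at 0.38 and 0.25 in lung and at 2.08, 2.56 and 2.06 in 323, 307 and 594. Its difference was -1.92 ± 0.59 (adjusted p 0.326). The other Col13a1 probe, well above background on 3 arrays, had the opposite sign, at 1.42 (adjusted p 0.308). The mean of both probes was -0.25. Col6a1 was at -0.37 and 0.91 in lung and at -1.62, -1.84 and -1.08 in mammary tumors, a difference of 1.78 ± 0.64 (adjusted p 0.380).

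The other genes named for this comparison were Col20a1, Col28a1 and Col19a1. Col20a1, a FACIT chain, was at -1.41 and -1.25 in lung and -2.21, -1.87 and -1.90 in mammary sarcomatoid tumors (difference 0.66 ± 0.33 SE, limma adjusted p 0.511). Col28a1 was at 0.95 and 0.10 against -0.80, -1.20 and 0.06, but was well above background on 3 arrays in all (difference 1.18 ± 0.58, adjusted p 0.509). Col19a1 was well above background on none of the 5 sarcomatoid arrays, so no fold is given. Markers of lung epithelium (Sftpc, Sftpb, Scgb1a1) had means of 0.36 in 323 lung and 1.10 in 307 lung, against -0.52, 0.17 and 0.20 in 323, 307 and 594, and their part was not tested. Both lung tumors were read with protocol 3 and no mammary sarcomatoid tumor was. Among the sarcomatoid tumors alone site and protocol therefore cannot be told apart. With scan protocol as a term, the protocol shift is taken from the adenocarcinomas. The differences were then 0.14 for Col20a1, -4.72 for Col9a1 and 3.13 for Col6a1, and 0 of 40 genes were called. Col20a1 was at -1.69, -1.34 and -1.57 in 131, 17 and 85 of protocol 3, and at -2.12 and -1.77 in 105 and 470.

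The pairs of the same origin split the classes. From 323 to 323 lung 9 of the 11 fibrillar genes were lower (median -1.15), while from 307 to 307 lung 10 of 11 were higher (median 2.15), and 10 of 11 had opposite signs. Col1a1 differed by -0.69 in the first pair and by 3.37 in the second, and Col11a1 by -3.46 and 4.28. Type IX was lower in both lung tumors, by a median of -2.36 and -3.32. Col6a1 was higher in both, by 1.25 and 2.75, as was Col4a2, by 1.33 and 1.58. Each pair is 1 lung and 1 mammary array, with no replicate.

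**Figure D5:**
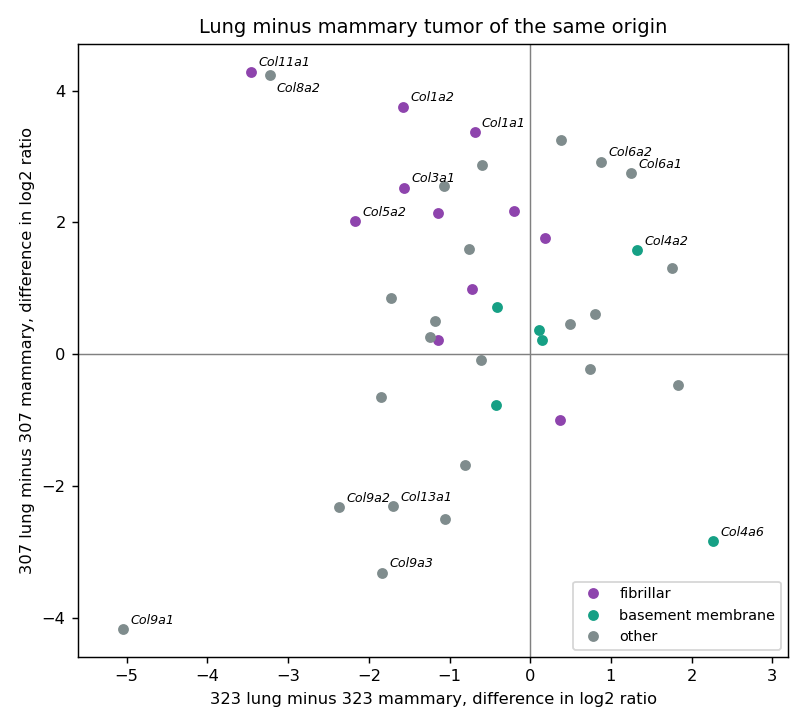
Difference in log2 ratio, lung minus mammary tumor, for origin 323 (horizontal axis) and origin 307 (vertical axis). Each point is a collagen gene, colored by class. Most fibrillar genes lie in the upper left, lower in 323 lung and higher in 307 lung, and the 3 type IX genes lie in the lower left, lower in both.

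Most genes had further probes on the array. Of 37 such probes of 28 genes in the table, 27 had the sign of the main probe between the groups, and of the 25 well above background on at least 5 arrays 22 did. The differences of the other Col1a1 probes were 0.42 and 0.02, beside 0.16 for the main one, and that of the other Col6a2 probe was 1.94, beside 1.30. For Col2a1, the cartilage fibril chain, the main probe was at 0.69 and the others at -0.67 and -0.30. The main Col2a1 probe had the pattern closest to Col3a1 of all pairs (mean absolute difference 0.178), with 1.996 in 307 lung and -1.80 in 131, while the second probe was at 0.51 and -0.77 there and highest in 105 (1.85). Whether the main probe reads type II RNA alone was not tested, and the probe sequences were not used here.

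Genes that make, export, cleave and sense collagen were read from a list of 36, of which 35 had a probe. Between the groups 25 were higher in sarcomatoid carcinoma and 10 lower, with a median difference of 0.61, and 0 were called (limma, smallest adjusted p 0.405), with 5 of 35 at an unadjusted p below 0.05, beside the 9.23% of all probes given above. Of the 13 prolyl and lysyl hydroxylases and their partners, which modify the chains, 11 were higher (P4ha1 0.78, adjusted p 0.550). Of 5 chaperone and export genes 4 were higher, such as Serpinh1, the collagen chaperone (0.90, adjusted p 0.639), and Fkbp10 (1.54, adjusted p 0.531). In the propeptide processing group Pcolce and Pcolce2, enhancers of C-propeptide cleavage, were at 1.64 and 2.03 (adjusted p 0.542 and 0.550).

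Both discoidin domain receptors, kinases that bind collagen, were the clearest of the list and went opposite ways. Ddr2, the mesenchymal one, had log2 ratios of -2.36, -0.14, -0.23, -0.23 and -0.97 in 323, 323 lung, 307, 307 lung and 594, and -2.58, -4.67, -0.34, -3.59 and -4.12 in 105, 131, 470, 17 and 85. Ddr1, the epithelial one, had -0.97, -0.36, -0.17, -0.76 and -0.75 against 1.66, 0.82, -1.26, 0.78 and 1.82. The groups overlapped for Ddr2 and parted for neither, since 470 lay on the sarcomatoid side for both. The other 4 adenocarcinomas lay outside the sarcomatoid range, but the share of all probes that do so without 470 is not given here. The differences were 2.27 ± 0.74 (SE) and -1.36 ± 0.50 (limma adjusted p 0.405 and 0.447). Within scan protocols 2 and 3 they were 0.86 and 3.94 for Ddr2 and -0.66 and -1.70 for Ddr1. Without 470 Ddr2 (2.95, adjusted p 0.0292), Ddr1 (-1.87, adjusted p 0.0239) and Sec23a, which coats vesicles that export procollagen (1.55, adjusted p 0.04999), were called. These were the 3 called of the 35 in that fit, where 1.54% of all probes were called. In the main fit and the other 19 alternatives 0 of the 35 were called. Tumor 470 was set apart by its epithelial and fibroblast markers in these data, so these calls are not independent of that choice.

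Markers of other cells were set beside these results. All 4 macrophage markers were higher in sarcomatoid carcinoma (median difference 1.71), with a list mean of 2.43 to 3.52 against 0.33 to 2.87, and the fibroblast list had 8 of 10 higher (median 1.102, list mean 0.01 to 2.22 against -0.82 to 2.91). None of the 4 or of the 10 was called (limma, smallest adjusted p 0.345 and 0.591), while 4 and 0 had an unadjusted p below 0.05. Skeletal muscle markers were highest in 105 (5.32), 470 (3.63) and 594 (3.04), at 0.995 or lower elsewhere, and adipocyte markers were highest in 105 (6.37) and 594 (5.11). Those of pericytes and smooth muscle were at -0.88 to 1.77 in sarcomatoid tumors and -0.38 to 1.74 in adenocarcinomas. The part of these cells in the collagen ratios was not tested.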

How the data were processed

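The deposited scanner files held spot intensity in a red and a green channel, a log10 ratio per spot and flags (0 or 1 codes) for background and saturation, from Agilent Feature Extraction 10.7.3.1, 11.0.1.1 or 11.5.1.1 per the file headers. The authors also deposited a normalized log2 ratio table of 42515 rows, made with limma by steps not given in the sources used here. Its 134 control rows were left out and repeated rows of a probe averaged, leaving 40196 probes. The table held 77 of the 78 collagen probes.

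Members and gene lists were chosen with earlier results of these data known. A gene was read from its probe with the highest mean red median intensity. Sarcomatoid and adenocarcinoma (5 tumors each), and lung (2) and mammary (3) sarcomatoid tumors, were compared over all 40196 probes with limma 3.58.1 in R 4.3.3, in two-sided tests whose p values were adjusted by Benjamini-Hochberg and called below 0.05. The lung fit kept the adenocarcinomas for the spread. Genes named were 10 fixed chains, the 5 with the largest statistics each way between the groups, and 3 each way between sites. Other genes named in the text were chosen after their values were seen. A fold against a group not well above background is a bound, for the main processing only, against the dimmest probe well above background. The number of arrays limits the precision. Alternatives were normexp (offset 50) with loess, processed signals, a filter on dim probes, means of probes, scan protocol, slide and tumor number as terms, and leaving out each tumor. Tumors 307 and 105 shared a slide, as did 594 and 470. Lung tumors were paired with mammary tumors of their origin by the labels' tumor numbers. Over all probes the deviations of pair mates correlated at 0.153 for 323 and 0.03 for 307.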

Additional observations from a re-analysis of the deposited data

Results flagged for a closer look

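Of 80 combinations of a collagen gene and a group of 5 tumors, 5 had a highest or lowest tumor whose gap to the next, divided by the group's range, was above Dixon's critical value of 0.71. Chance flags about 1 in 20 groups, which is 4 here. Tumor 85 was far above the other adenocarcinomas for Col11a2, at a log2 ratio of 1.97 against -1.67 to -0.66, and for Col25a1, at 3.26 against 0.09 to 0.65. The other Col11a2 probe, well above background on 9 arrays, was at -0.17 in 85, so the Col11a2 flag rests on the main probe. Tumor 470 was far above them for Col24a1, at 3.69 against -0.27 to 0.86, and far below them for Col9a2, at -0.359 against 2.99 to 3.60. In the sarcomatoid group 307 lung was far above the others for Col10a1, the hypertrophic cartilage chain, at 2.41 against -0.62 to 0.10.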

How the results depend on the processing

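No collagen gene was called between the groups under any of 20 alternatives, or between lung and mammary sarcomatoid tumors under any of 18, with smallest adjusted p values of 0.0574 and 0.0895 (limma). Leaving out 1 tumor gave 0 to 0 collagen genes called in both comparisons and 0 to 3 collagen processing genes, the 3 without adenocarcinoma 470. With 1 tumor left out the median difference ran from 0.26 to 1.26 for fibrillar, from -0.31 to 0.27 for basement membrane and from -0.37 to 0.35 for other collagens. The mean of all probes of a gene gave -0.36 for basement membrane collagens and turned Col4a3 to -0.43. Of the named genes, 14 combinations of a gene and a setting had the opposite sign, none of them called. Col1a1 was at -0.0947 with slide as a random block, and from -0.66 to 0.97 with 1 tumor left out, with negative values of -0.66 without 307 lung, -0.49 without 594, -0.33 without 131, -0.39 without 17 and -0.01 without 85. Without 307 lung Col1a2 was at -0.23 and Col6a3 at -0.47, and Col6a3 was at -0.17 without 594, -0.17 without 131 and -0.08 without 17. Col4a2 was at 0.0024 with scan protocol as a term and at 0.0036 without 323. With 1 tumor left out Col1a2 ran from -0.23 to 1.24, Col4a2 from -0.90 to 0.0036 and Col6a3 from -0.47 to 0.88. The cause was not tested. With the tumor number as a random block between the groups, or as a fixed replicate block pairing lung with mammary tumors, 0 collagen genes were called (0 in the main fits), and the block changed no call of a collagen or processing gene. Dim signal limits Col4a3, Col10a1, Col19a1 and Col28a1. It also limits Col24a1 in 131, 17 and 85, and Col27a1 in 131 and 85.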
